A study of Mus musculus with 12 samples.

Results

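Phase II conjugation enzymes attach a polar group to drugs, carcinogens, steroids, bilirubin and other lipophilic molecules so that they can be excreted. The genes described here were all mouse genes whose symbols belong to the cytosolic glutathione transferases (Gsta, Gstk, Gstm, Gsto, Gstp and Gstt), the microsomal glutathione transferases (Mgst), the UDP-glucuronosyltransferases (Ugt1a, Ugt2 and Ugt3) or the cytosolic sulfotransferases (Sult1 to Sult6). The symbol pattern matched 67 genes in RefSeq, of which 53 had a probe on the array through its RefSeq accession. Of these, 33 passed the filter on dim probes and were tested among 18953 genes and unnamed transcripts: 21 of 22 glutathione transferases, 4 of 14 UDP-glucuronosyltransferases and 8 of 17 sulfotransferases. The symbols, and not any measured value, chose the genes.

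Female BALB/c mice gave the samples, RNA of epithelial tissue from the distal colorectum taken on day 100, with 3 one-colour arrays in each of 4 groups. The AOM/DSS group had received 1 intraperitoneal dose of azoxymethane (AOM, a colon carcinogen) of 12.5 mg/kg on day 1, followed by drinking water with dextran sulfate sodium (DSS, which injures the colonic epithelium) for 5 of every 21 days over 3 cycles beginning on day 5. The AOM group had received 10 mg/kg AOM in 6 weekly doses, the DSS group the same 3 DSS cycles alone, and the control group neither agent; the labels give the mice's age as 5 to 7 weeks. The AOM/DSS samples were clipped neoplasms kept in RNA storage solution, while the other groups were epithelium scraped into Trizol, so treatment, tissue and collection cannot be told apart in any comparison with AOM/DSS. The AOM dose also differed between the AOM/DSS and AOM groups.

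All members act in the same general scheme. Glutathione transferases join the tripeptide glutathione to electrophiles, UDP-glucuronosyltransferases transfer glucuronic acid from UDP-glucuronate in the endoplasmic reticulum, and sulfotransferases transfer sulfate from the activated donor PAPS in the cytosol. In the intestine these enzymes are known mainly from the differentiated epithelial cells that face the lumen, and several are induced there by dietary electrophiles through the transcription factor Nrf2 or by ligands of nuclear receptors and the aryl hydrocarbon receptor.

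Values below are log2 processed intensity minus each array's 75th percentile (log2 scaled intensity), so 0 is the level of the 75th percentile probe of that array; differences are between group means on this scale, given ± SE from the fit. Levels of different genes are not compared, because each comes from its own probe. A gene was called at a Benjamini-Hochberg adjusted p under 0.05 in limma's moderated test over all 18953 features. The 75th percentile intensity itself ran from 1115 to 1185 on the AOM/DSS arrays and from 393 to 694 on the other arrays, and no spot was saturated. Differentiated cell markers moved with the groups: the mean of 17 absorptive colonocyte markers was 0.11 to 1.05 on the AOM/DSS arrays, 2.77 to 3.41 on the AOM arrays, 3.67 to 4.08 on the DSS arrays and 3.74 to 4.80 on the control arrays, and the mean of 10 goblet cell markers was 2.06 to 4.70 on the AOM/DSS arrays, 6.57 to 7.18 on the AOM arrays, 6.74 to 7.72 on the DSS arrays and 7.13 to 7.83 on the control arrays. The mean of 10 general epithelial markers was 4.52 to 4.73 on the AOM/DSS arrays, 4.90 to 5.28 on the AOM arrays, 4.69 to 5.46 on the DSS arrays and 4.37 to 5.06 on the control arrays. The mean of 12 pancreatic acinar markers was -3.62 to -3.07 on the AOM/DSS arrays, -3.20 to -2.86 on the AOM arrays, 3.18, -2.93 and -2.44 on the DSS arrays and 1.39, -0.92 and 5.92 on the control arrays, so that DSS replicate 1 and control replicate 3 stood highest. The mean of 11 fibroblast markers was 1.95 or more on every array except control replicates 1 and 2, at 0.19 and -0.95. Of these lists, 15 of 17 colonocyte, 10 of 10 goblet and 6 of 10 epithelial markers were lower in AOM/DSS than in control, 1 epithelial marker was higher, and at least 9 of 10 epithelial markers were well above background on every array. Neutrophil markers, 5 tested, averaged 0.71 to 1.55 on the AOM/DSS arrays, -0.809 to -0.003 on the AOM arrays, -2.61 to -0.06 on the DSS arrays and -4.71 to -3.89 on the control arrays, and all 5 were higher in AOM/DSS than in control. In the same comparison 5 of 7 crypt stem and progenitor markers and 5 of 7 macrophage markers were higher, and 3 of 7 B and plasma cell markers lower. Macrophage markers were also higher in AOM than in control, 6 of 7, and 0 passed in AOM/DSS against AOM or DSS. Against AOM and DSS, 6 and 7 of 7 B and plasma cell markers were lower in AOM/DSS, and 0 and 4 of 7 stem and progenitor markers higher. In such tissue samples fewer cells of a type and less RNA per cell cannot be told apart, and the part of these shifts in the results below was not tested.

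In AOM/DSS neoplasms most measured conjugation enzymes were lower than in control epithelium. Of the 33 genes tested, 21 were lower and 4 higher, 25 in all, where 34.7% of all features were called (17.5% lower and 17.2% higher). The median difference was -1.68 over the 33 genes and 0.03 over all features. All 5 measured Sult1 genes, both Sult2 genes and both Ugt1a genes were lower, as were 12 of 21 glutathione transferases. Of these, Ugt1a1 passed the filter only through the control group. Gsta4, Gstm5, Gstm7 and Sult4a1 were higher, and Sult4a1 passed the filter only through groups other than control. The 8 that did not pass were Gsta3, Gstm6, Gsto1, Gstp1, Gstp3, Mgst1, Ugt2b34 and Ugt2b35, with differences from -0.92 (Gstp3) to 0.71 (Gsta3). The 30 genes that were well above background on all 12 arrays had 19 lower and 3 higher calls, and the share called over all 13718 features of that kind was 39.2%. With another background correction, normexp on raw signals, 15 of the 33 members were lower and 2 higher.

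**Figure D1:**
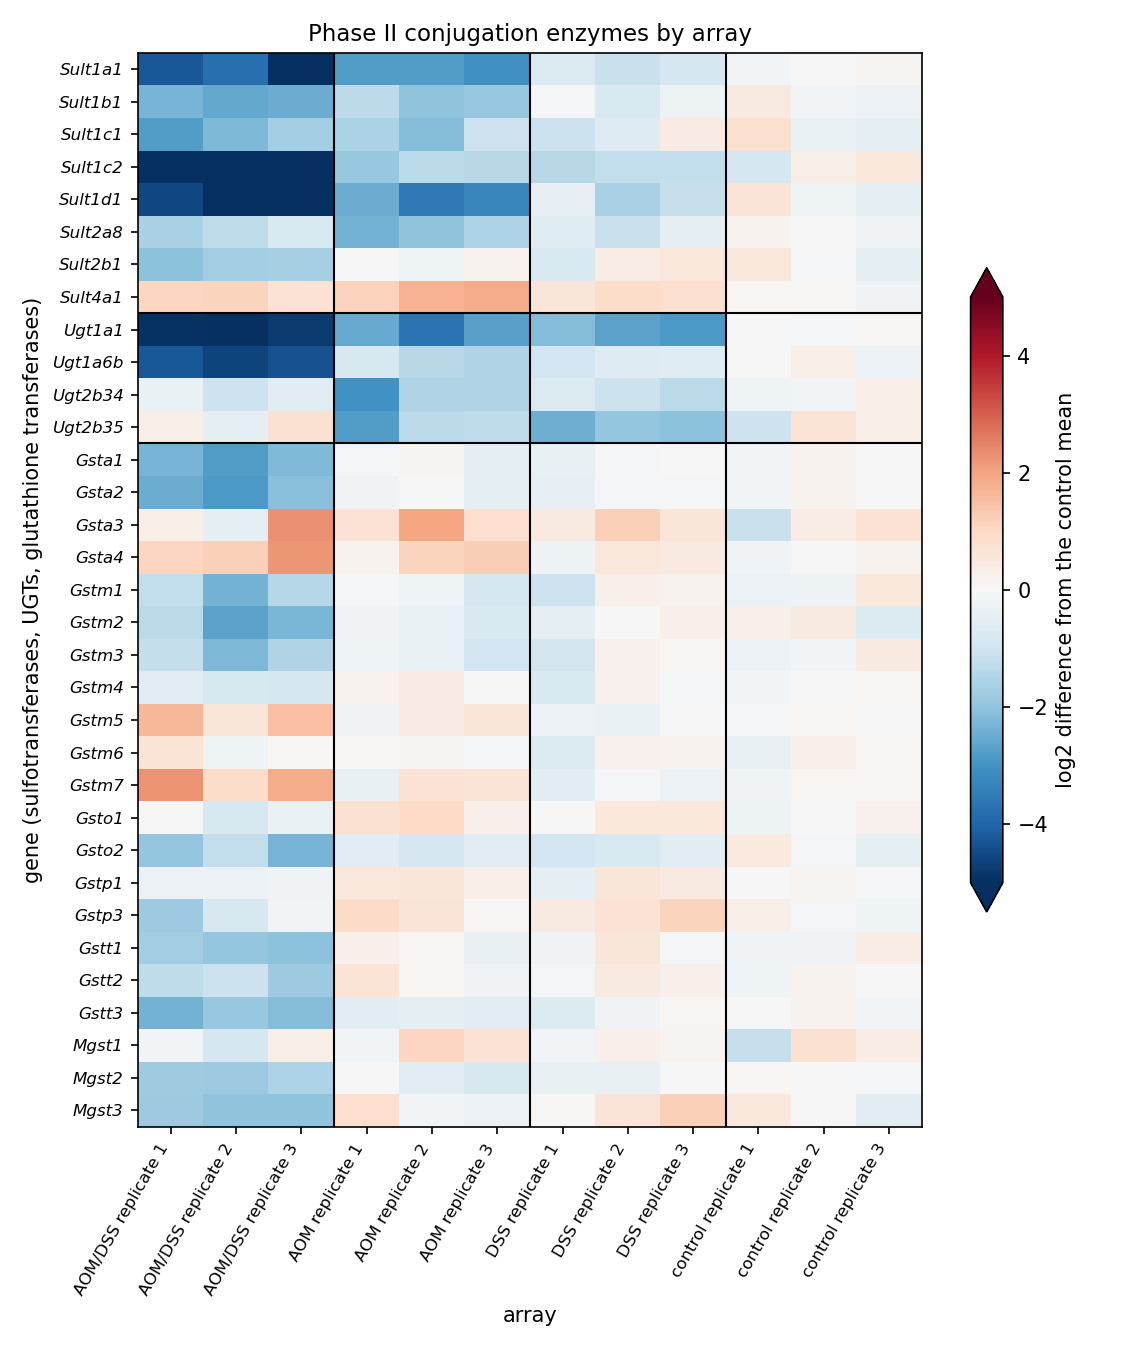
Each row is 1 of the 33 tested genes and each column 1 array; colour gives the log2 difference from the mean of the 3 control arrays, from blue (lower) through white to red (higher), with the scale ending at 5 in both directions. Sult1c2, Sult1d1, Ugt1a1, Ugt1a6b and Sult1a1 are the darkest blue on the AOM/DSS arrays, and the AOM columns are blue mainly in the sulfotransferase and UDP-glucuronosyltransferase rows.

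Sulfotransferases transfer sulfate to phenols, catecholamines, steroids and bile acids, and all 7 tested members of the Sult1 and Sult2 families were lower in AOM/DSS. Sult1a1, the phenol sulfotransferase, read 0.54, 1.02 and -0.89 on the AOM/DSS arrays, 2.00, 1.98 and 1.72 on the AOM arrays, 4.07, 3.67 and 3.93 on the DSS arrays and 4.64, 4.79 and 4.91 on the control arrays. No 2 of the 4 groups overlapped, with AOM/DSS lowest and control highest. Its difference from control was -4.56 ± 0.40 in AOM/DSS (23.6-fold lower, adjusted p = 4.6e-05 by limma) and -2.88 ± 0.40 in AOM (7.37-fold lower, adjusted p = 0.0036).

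Sult1d1, which sulfates catecholamines in mice, read -1.57, -4.49 and -4.47 on the AOM/DSS arrays, 0.52, -0.58 and -0.25 on the AOM arrays, 2.57, 1.37 and 1.86 on the DSS arrays and 3.63, 2.80 and 2.56 on the control arrays. AOM/DSS replicate 1 stood well above the other AOM/DSS arrays, yet all 3 lay below every array of the other groups. The difference from control was -6.51 ± 0.71 in AOM/DSS (91.0-fold lower, adjusted p = 0.00014), and in AOM it was 8.58-fold lower (adjusted p = 0.013), a call that did not hold without AOM replicate 2 (-2.86, adjusted p = 0.052) or control replicate 1 (-2.78, adjusted p = 0.051).

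Sult1c2, another member of the phenol-sulfating Sult1 family, read -2.32, -4.13 and -5.03 on the AOM/DSS arrays, 0.90, 1.43 and 1.43 on the AOM arrays, 1.40, 1.58 and 1.58 on the DSS arrays and 1.92, 3.09 and 3.38 on the control arrays. Only 2 of the 3 AOM/DSS arrays were well above background, so the fitted differences of this gene in AOM/DSS include 1 reading that was not, and no fold is given. It differed from control by -6.62 ± 0.59 in AOM/DSS (adjusted p = 5e-05); in AOM the difference of -1.54 ± 0.59 did not pass (adjusted p = 0.066), although the AOM and control arrays did not overlap. Set directly against AOM, AOM/DSS differed by -5.08 ± 0.59 (adjusted p = 0.00077).

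Sult1b1, which sulfates phenols and thyroid hormones, read 3.08, 2.84 and 2.94 on the AOM/DSS arrays, 4.12, 3.39 and 3.54 on the AOM arrays, 5.31, 4.67 and 5.17 on the DSS arrays and 5.87, 5.27 and 5.11 on the control arrays. AOM/DSS and AOM both lay below DSS and control on every array, and DSS overlapped control. The difference from control was -2.46 ± 0.28 in AOM/DSS (adjusted p = 0.00017) and -1.73 ± 0.28 in AOM (adjusted p = 0.0054). Its dimmer probe gave differences of the same direction. Sult1c1, outside the naming rule and named to complete the family, read -2.24, -1.73 and -1.22 on the AOM/DSS arrays, -1.04, -1.65 and -0.49 on the AOM arrays, -0.54, -0.13 and 0.93 on the DSS arrays and 1.33, 0.19 and 0.08 on the control arrays. It was 4.80-fold lower in AOM/DSS (adjusted p = 0.005), a call that was lost with slide as a block (-1.75). Its call in AOM (-1.59 ± 0.48, adjusted p = 0.03) was lost without any 1 of AOM replicates 1 and 2 and control replicates 1 and 2.

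**Figure D2:**
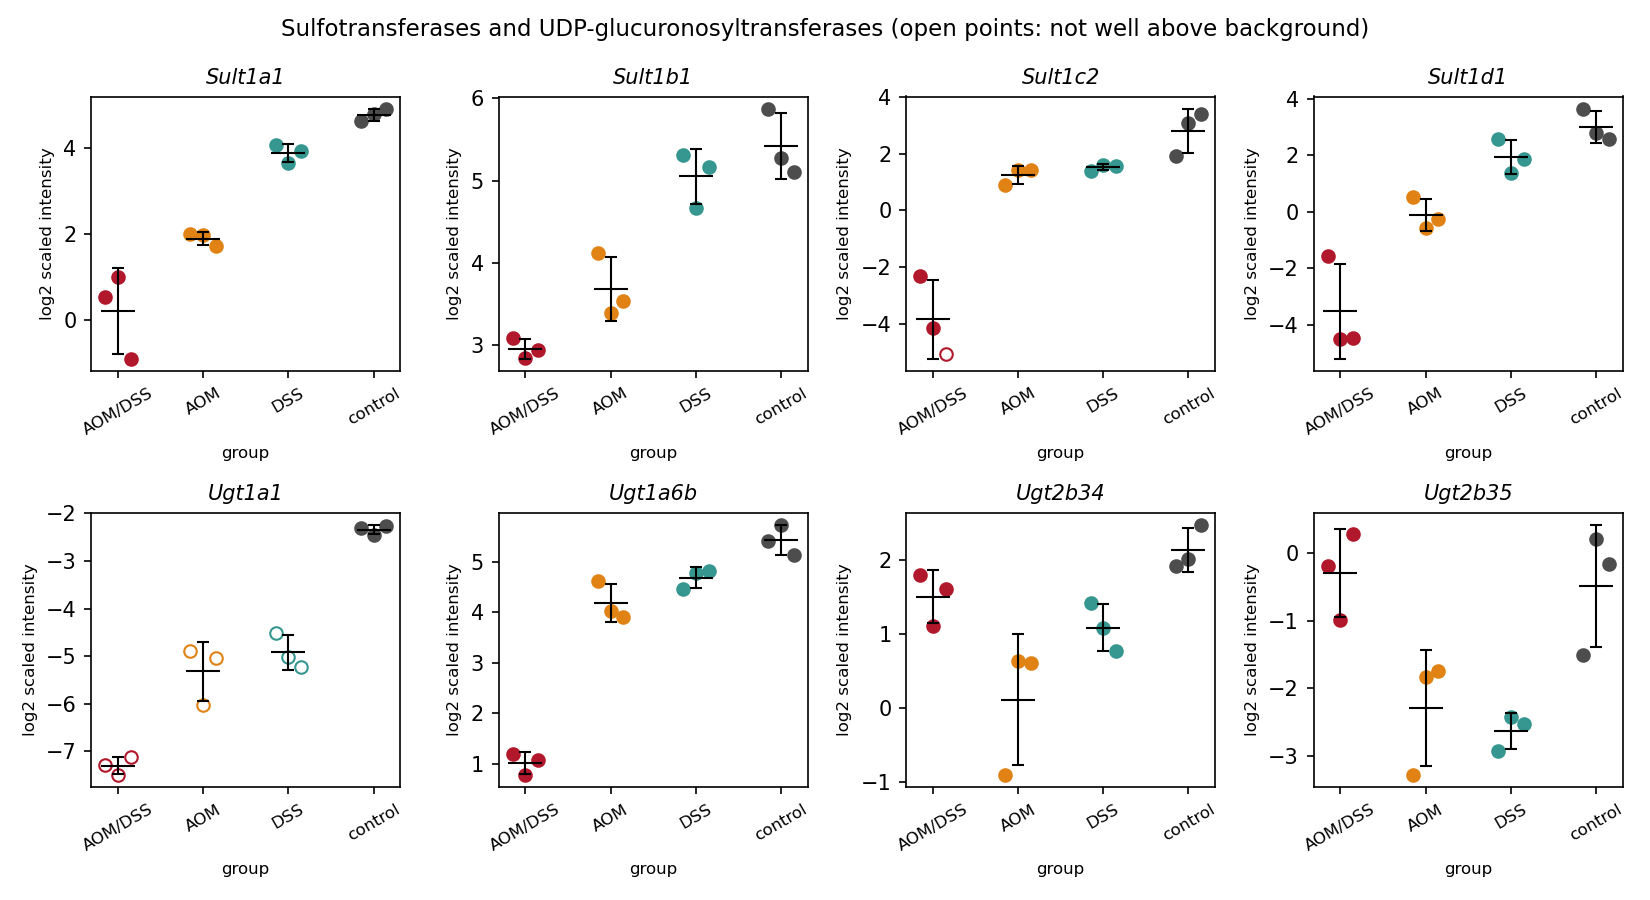
Each panel plots 1 gene; points are the 3 arrays of a group as log2 scaled intensity (vertical axis, each panel with its own range), open points were not well above background, and the line and bar give the mean ± SD. In Sult1a1, AOM/DSS lies lowest, then AOM, DSS and control. In Ugt2b34 and Ugt2b35 the AOM arrays lie below both AOM/DSS and control, as do the DSS arrays in Ugt2b35.

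The Sult2 genes differed between groups in another order. Sult2a8, a bile acid sulfotransferase of the mouse, read -1.51, -1.14 and -0.64 on the AOM/DSS arrays, -2.22, -1.88 and -1.41 on the AOM arrays, -0.48, -0.99 and -0.34 on the DSS arrays and 0.30, 0.13 and -0.07 on the control arrays; both AOM/DSS (-1.22 ± 0.29, adjusted p = 0.0094) and AOM (-1.96 ± 0.29, adjusted p = 0.0049) were lower than control, and AOM was the lowest group by mean. AOM/DSS and AOM did not differ at the threshold (difference 0.74 ± 0.29, adjusted p = 0.068). Sult2b1, which sulfates cholesterol, read -1.23, -0.91 and -0.83 on the AOM/DSS arrays, 0.83, 0.61 and 1.00 on the AOM arrays, 0.07, 1.22 and 1.40 on the DSS arrays and 1.40, 0.77 and 0.35 on the control arrays. It was lower in AOM/DSS than in control (-1.83 ± 0.36, adjusted p = 0.0037) and than in AOM (-1.80 ± 0.36, adjusted p = 0.0074), while AOM against control gave -0.03 ± 0.36 (adjusted p = 0.96). With slide as a block, the AOM/DSS differences from control kept their sign but did not pass, at -0.76 for Sult2a8 and -1.67 for Sult2b1.

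Sult4a1, a sulfotransferase known mainly from brain, was well above background on all AOM/DSS, AOM and DSS arrays and on none of the 3 control arrays. The gene passed the filter only through groups where it is higher than in control, so the filter favoured calls of a rise. Its values were -3.43, -3.40 and -3.78 on the AOM/DSS arrays, -3.36, -2.75 and -2.66 on the AOM arrays, -3.88, -3.61 and -3.70 on the DSS arrays and -4.42, -4.43 and -4.66 on the control arrays. It was at least 2.01-fold higher in AOM (adjusted p = 0.004) and at least 1.32-fold higher in AOM/DSS (adjusted p = 0.0079) than in control, a bound taken against the dimmest signal that counts as above background. The direction turned with another background correction: normexp on raw signals gave -0.42 in AOM and -1.05 in AOM/DSS, neither past the threshold. With slide as a block the sign was kept but neither call was, at 1.09 in AOM and 0.73 in AOM/DSS.

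Among the UDP-glucuronosyltransferases, the Ugt1a and Ugt2 genes followed different orders. Ugt1a6b, which glucuronidates planar phenols, read 1.20, 0.78 and 1.07 on the AOM/DSS arrays, 4.62, 4.03 and 3.91 on the AOM arrays, 4.46, 4.78 and 4.82 on the DSS arrays and 5.42, 5.72 and 5.14 on the control arrays. AOM/DSS lay far below every other array, and AOM lay below all control arrays. It differed from control by -4.41 ± 0.25 in AOM/DSS (21.3-fold lower, adjusted p = 5.1e-06) and by -1.24 ± 0.25 in AOM (2.36-fold lower, adjusted p = 0.0089). Ugt1a1, the bilirubin-conjugating enzyme, was well above background on none of the 9 AOM/DSS, AOM and DSS arrays, and on all 3 control arrays, at -2.31, -2.45 and -2.27. Against control, AOM/DSS was at least 6.59-fold lower (adjusted p = 8.8e-06), AOM at least 4.34-fold lower (adjusted p = 0.0026) and DSS at least 3.35-fold lower (adjusted p = 0.012). The gene passed the filter only through the control group, where it is high, so the filter favoured these calls of a fall. The Ugt1a genes share their last exons, so a probe there could read several of them, and the signals are uncertain to that extent.

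The other 2 genes tested, Ugt2b34 and Ugt2b35, belong to the Ugt2b family, which glucuronidates steroids, bile acids and drugs, and lie in 1 cluster on chromosome 5. Ugt2b34 read 1.80, 1.11 and 1.61 on the AOM/DSS arrays, -0.90, 0.63 and 0.62 on the AOM arrays, 1.42, 1.08 and 0.77 on the DSS arrays and 1.93, 2.01 and 2.47 on the control arrays. Ugt2b35 read -0.18, -0.99 and 0.29 on the AOM/DSS arrays, -3.29, -1.84 and -1.75 on the AOM arrays, -2.94, -2.43 and -2.53 on the DSS arrays and -1.51, 0.21 and -0.16 on the control arrays. For Ugt2b34 every AOM array lay below every AOM/DSS and control array, and the same held for Ugt2b35. In Ugt2b35 every DSS array also lay below every AOM/DSS and control array, and DSS had the lowest mean (-2.63, against -2.29 in AOM). Ugt2b34 was lower in AOM than in control by 4.06-fold (-2.02 ± 0.40, adjusted p = 0.0087) and higher in AOM/DSS than in AOM by 2.63-fold (1.39 ± 0.40, adjusted p = 0.023). For Ugt2b35 these differences were -1.80 ± 0.53 (adjusted p = 0.028) and 2.00 ± 0.53 (adjusted p = 0.017). Neither gene passed between AOM/DSS and control, at -0.63 ± 0.40 and 0.19 ± 0.53 (adjusted p = 0.25 and 0.81). The Ugt2b35 call in AOM against control held in 2 of 6 fits that each left out 1 array (lost without AOM replicate 1 or 2 or control replicate 2 or 3), that of Ugt2b34 in 6 of 6. Both calls of AOM/DSS against AOM were lost without AOM/DSS replicate 1 or 3 or AOM replicate 1.

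Of 21 glutathione transferases, 12 were lower and 3 higher in the AOM/DSS neoplasms relative to control epithelium, with a median of -1.40. With the normexp correction 6 were lower and 2 higher. Lower calls came to 2 of 4 Gsta, 4 of 7 Gstm, 1 of 2 Gsto, 0 of 2 Gstp, 3 of 3 Gstt and 2 of 3 Mgst genes. The alpha-class genes Gsta1 and Gsta2, near-identical copies whose signals may not be separable, were both lower, while Gsta4 of the same class, which conjugates the lipid peroxidation product hydroxynonenal, was higher. Gsta1 read 0.64, 0.17 and 0.76 on the AOM/DSS arrays, 2.90, 3.09 and 2.50 on the AOM arrays, 2.58, 2.91 and 2.95 on the DSS arrays and 2.83, 3.12 and 2.93 on the control arrays. The AOM/DSS arrays lay well below the other 9, which overlapped one another. Its difference from control was -2.44 ± 0.23 (5.41-fold lower, adjusted p = 6.9e-05), and that of Gsta2 was -2.49 ± 0.24 (5.60-fold lower, adjusted p = 7.1e-05). Gsta4 read 2.59, 2.69 and 3.70 on the AOM/DSS arrays, 1.70, 2.62 and 2.73 on the AOM arrays, 1.24, 2.06 and 1.94 on the DSS arrays and 1.32, 1.51 and 1.70 on the control arrays, a difference from control of 1.49 ± 0.37 (2.80-fold higher, adjusted p = 0.011). Gsta3, which fell outside the naming rule and is given because it completes the class, differed by 0.71 ± 0.69 (adjusted p = 0.45).

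All 3 tested theta-class genes were lower: Gstt3 by 4.40-fold (adjusted p = 0.00011), Gstt1 by 3.78-fold (adjusted p = 0.00058) and Gstt2 by 2.65-fold (adjusted p = 0.004). These genes follow one another on chromosome 10 with only Gstt4, which did not pass the filter, among them. Gstt2 read 0.84, 1.04 and 0.30 on the AOM/DSS arrays, 2.82, 2.22 and 1.94 on the AOM arrays, 2.08, 2.59 and 2.40 on the DSS arrays and 1.90, 2.32 and 2.16 on the control arrays. Gstt1 read -2.88, -3.07 and -3.17 on the AOM/DSS arrays, -0.86, -1.01 and -1.49 on the AOM arrays, -1.31, -0.54 and -1.17 on the DSS arrays and -1.32, -1.31 and -0.75 on the control arrays. In both genes the AOM/DSS arrays lay below all 9 others.

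The microsomal transferases sit in membranes. Mgst3 read 3.75, 3.57 and 3.58 on the AOM/DSS arrays, 6.42, 5.43 and 5.28 on the AOM arrays, 5.65, 6.20 and 6.78 on the DSS arrays and 6.10, 5.57 and 5.05 on the control arrays, and was 3.84-fold lower in AOM/DSS than in control (adjusted p = 0.0035). Mgst2, which can also make conjugated leukotrienes, read 4.39, 4.38 and 4.66 on the AOM/DSS arrays, 6.15, 5.63 and 5.38 on the AOM arrays, 5.80, 5.82 and 6.21 on the DSS arrays and 6.28, 6.20 and 6.08 on the control arrays, and was 3.27-fold lower (adjusted p = 0.00045). Mgst1, outside the naming rule and named to complete the family, differed by -0.24 ± 0.49 (adjusted p = 0.74). Gsto2, an omega-class enzyme that reduces dehydroascorbate, read -4.40, -3.71 and -4.80 on the AOM/DSS arrays, -3.04, -3.33 and -3.03 on the AOM arrays, -3.46, -3.23 and -3.07 on the DSS arrays and -2.01, -2.53 and -2.92 on the control arrays, and was 3.53-fold lower (adjusted p = 0.0016). Gsto1, the adjacent gene, read 6.02, 5.17 and 5.66 on the AOM/DSS arrays, 6.76, 6.97 and 6.26 on the AOM arrays, 5.99, 6.52 and 6.52 on the DSS arrays and 5.75, 6.03 and 6.20 on the control arrays. It differed from control by -0.37 ± 0.28 (adjusted p = 0.33), and the AOM/DSS arrays overlapped the controls.

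The pi-class genes did not pass between AOM/DSS and control. Gstp1 read 6.28, 6.28 and 6.43 on the AOM/DSS arrays, 7.17, 7.20 and 6.88 on the AOM arrays, 6.16, 7.20 and 7.03 on the DSS arrays and 6.56, 6.72 and 6.49 on the control arrays, a difference of -0.26 ± 0.26 (adjusted p = 0.47) with groups that did not overlap. Gstp3, its close copy on chromosome 19, read -2.40, -1.38 and -0.72 on the AOM/DSS arrays, 0.38, 0.05 and -0.53 on the AOM arrays, -0.14, 0.15 and 0.52 on the DSS arrays and -0.29, -0.66 and -0.79 on the control arrays, a difference of -0.92 ± 0.40 (adjusted p = 0.099). Without AOM/DSS replicate 3 that of Gstp3 passed (-1.31, adjusted p = 0.03).

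The mu-class genes form one cluster on chromosome 3 and had calls in both directions. With slide as a block all 6 called genes kept their sign, but only Gstm2 passed (-2.27, adjusted p = 0.043), and the other 5 had adjusted p from 0.059 to 0.18. In RefSeq order the tested genes are Gstm5, Gstm7, Gstm6, Gstm3, Gstm2, Gstm1 and Gstm4. Gstm5 and Gstm7, at one end, were higher in AOM/DSS than in control, Gstm6 did not pass, and the 4 that follow were lower. Gstm4 and Gstm6 fell outside the naming rule; they are named because they complete the cluster, and its order was noticed after the values were seen. Gstm5 read 4.28, 3.20 and 4.09 on the AOM/DSS arrays, 2.42, 3.02 and 3.22 on the AOM arrays, 2.33, 2.26 and 2.57 on the DSS arrays and 2.49, 2.70 and 2.62 on the control arrays; the AOM/DSS arrays lay above all control arrays, and 1 of them lay within the AOM range. Its difference from control was 1.25 ± 0.30 (2.38-fold higher, adjusted p = 0.0093). Gstm7 read -0.09, -1.41 and -0.47 on the AOM/DSS arrays, -2.68, -1.59 and -1.66 on the AOM arrays, -2.87, -2.36 and -2.63 on the DSS arrays and -2.51, -2.23 and -2.23 on the control arrays, and was 3.17-fold higher in AOM/DSS than in control (adjusted p = 0.0065). All 3 AOM/DSS arrays lay above the controls in both genes. Gstm6, between the groups of higher and lower genes, differed by 0.17 ± 0.31 (adjusted p = 0.7).

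Gstm1 read 4.67, 3.56 and 4.47 on the AOM/DSS arrays, 5.82, 5.69 and 5.06 on the AOM arrays, 4.90, 6.17 and 6.09 on the DSS arrays and 5.61, 5.68 and 6.45 on the control arrays, and was 3.20-fold lower in AOM/DSS than in control (adjusted p = 0.012). Gstm2 read 3.92, 2.62 and 3.00 on the AOM/DSS arrays, 5.09, 4.94 and 4.52 on the AOM arrays, 4.82, 5.24 and 5.55 on the DSS arrays and 5.53, 5.72 and 4.57 on the control arrays, with AOM/DSS lowest on every array. It was 4.28-fold lower (adjusted p = 0.0026) and Gstm3 3.13-fold lower (adjusted p = 0.0084). Gstm4 was 1.66-fold lower at an adjusted p of 0.048, a call that no fit leaving out 1 of the 6 arrays kept. These genes are close copies of one another, so part of a probe's signal could come from a neighbour.

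**Figure D3:**
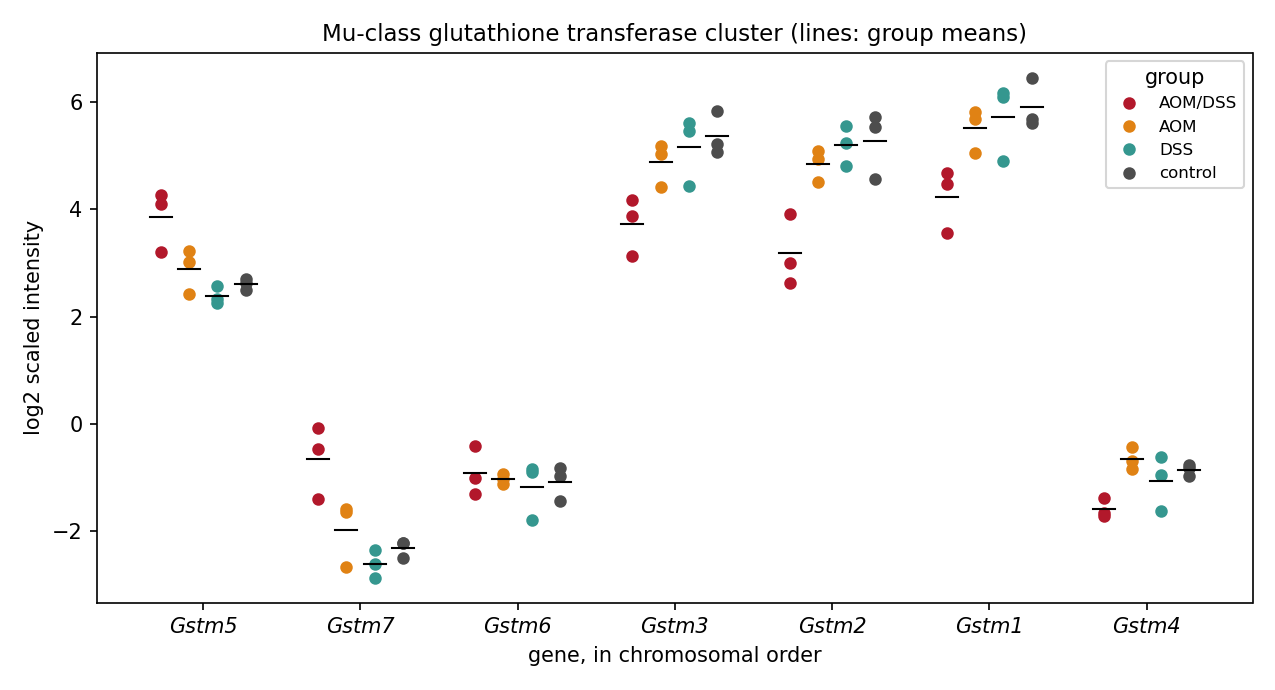
Points are arrays and short lines group means of log2 scaled intensity (vertical axis) for the 7 mu-class genes in chromosomal order (horizontal axis), with the AOM/DSS, AOM, DSS and control groups from left to right at each gene. The AOM/DSS points lie above the control points in Gstm5 and Gstm7 and below them in Gstm3, Gstm2, Gstm1 and Gstm4.

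RefSeq promoter sequences (250 bases before to 50 after the start, GRCm38.p6) were matched for 29 of the 33 tested genes and searched on both strands for the core of the antioxidant response element, TGACNNNGC, which Nrf2 recognises in dimers with small Maf proteins. The letters occur in 12.4% of 32851 promoters. They occur in 4 of the 40 promoters of these 29 genes, each in another gene: Gstm5 and Gstm7, the only higher genes with a sequence, and Gsta3 and Mgst1, which did not pass; they occur in none of the 26 promoters of the 19 lower genes. A match is a description of the sequence and not a binding site. Sequence outside this window was not searched, so a promoter without a match may have one further away. The 4 matched promoters and, from the same cluster, that of Gstm2 are shown 5′ to 3′ on the strand of the gene with the match, on either strand, in capitals: Gstm5 at chr3:107895604-107895903, plus strand; Gstm7 at chr3:107931565-107931864, minus strand; Gsta3 at chr1:21240335-21240634, plus strand; Mgst1 at chr6:138140277-138140576, plus strand; and Gstm2 at chr3:107986371-107986670, minus strand.
Gstm5: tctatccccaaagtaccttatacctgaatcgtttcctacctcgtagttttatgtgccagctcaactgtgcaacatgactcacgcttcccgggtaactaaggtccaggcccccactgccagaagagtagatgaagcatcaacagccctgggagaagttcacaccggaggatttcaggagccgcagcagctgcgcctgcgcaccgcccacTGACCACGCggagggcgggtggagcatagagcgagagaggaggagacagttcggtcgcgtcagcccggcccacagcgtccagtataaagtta
Gstm7: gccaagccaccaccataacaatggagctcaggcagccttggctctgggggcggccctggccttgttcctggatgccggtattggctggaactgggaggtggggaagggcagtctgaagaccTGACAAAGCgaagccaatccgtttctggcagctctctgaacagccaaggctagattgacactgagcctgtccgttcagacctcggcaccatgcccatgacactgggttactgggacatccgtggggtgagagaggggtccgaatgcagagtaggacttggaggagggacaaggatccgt
Gsta3: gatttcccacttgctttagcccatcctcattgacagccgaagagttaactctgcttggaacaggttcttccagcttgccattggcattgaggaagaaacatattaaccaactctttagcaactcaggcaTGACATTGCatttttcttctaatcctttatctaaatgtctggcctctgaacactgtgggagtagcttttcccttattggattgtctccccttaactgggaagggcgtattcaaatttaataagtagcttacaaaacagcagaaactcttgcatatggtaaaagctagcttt
Mgst1: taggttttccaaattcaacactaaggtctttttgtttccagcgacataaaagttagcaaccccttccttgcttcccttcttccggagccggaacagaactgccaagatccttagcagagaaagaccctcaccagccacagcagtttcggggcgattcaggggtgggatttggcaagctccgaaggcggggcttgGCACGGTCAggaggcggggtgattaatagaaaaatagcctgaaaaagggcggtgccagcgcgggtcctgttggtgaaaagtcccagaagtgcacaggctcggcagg
Gstm2: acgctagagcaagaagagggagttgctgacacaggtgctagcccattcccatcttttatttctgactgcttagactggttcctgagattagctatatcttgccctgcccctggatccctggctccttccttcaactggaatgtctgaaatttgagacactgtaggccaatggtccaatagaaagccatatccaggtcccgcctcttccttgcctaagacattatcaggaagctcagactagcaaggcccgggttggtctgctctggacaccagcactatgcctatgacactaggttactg
The Gstm5 match begins 42 bases and the Gstm7 match 129 bases before the gene start, and Gstm7 and Mgst1 each have another start whose promoter holds none. The xenobiotic response element core, GCGTG, was also searched on both strands and reads CACGC on the opposite strand. The Gstm5 match above ends in these letters, so the searches for both motifs share bases there. GCGTG occurs in 32.4% of all promoters, in 12 of the 40 promoters of the tested genes and in 9 of the 26 of the lower genes.

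AOM alone gave calls among the sulfotransferases and UDP-glucuronosyltransferases and none among the glutathione transferases. Of the 33 genes, 9 were lower and 1 higher than control, 10 in all, where 32.4% of features were called (17.6% lower). These 10 calls are near the share over all features. The higher gene, Sult4a1, passed the filter only through groups other than control. The median was -0.20 over the 33 genes and -0.01 over all features. All 4 UDP-glucuronosyltransferases, with Ugt1a1 kept only through the control group, and 5 of 8 sulfotransferases were lower. Among genes well above background on all 12 arrays the lower calls were 3 of 3 and 5 of 6. With the normexp correction they were 1 of 4 and 3 of 8. None of the 21 glutathione transferases passed in limma, and their differences ran from -0.65 to 1.18. Of the 21, 3 had an unadjusted p under 0.05, where 8777 of all 18953 features did. Gsta4 at 0.84 ± 0.37 (adjusted p = 0.1) and Gsto1 at 0.67 ± 0.28 (adjusted p = 0.087) did not pass, although in both genes the AOM arrays did not overlap the controls; without AOM replicate 1 Gsta4 passed (1.17, adjusted p = 0.044). No fit compared the enzyme classes with one another. Of the 17 colonocyte markers 7 were lower in AOM than in control, and 15 in AOM/DSS.

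DSS alone, with cycles from day 5 and samples taken on day 100, gave a single call among the members, Ugt1a1, where 0.327% of all features were called. That gene passed the filter only through the control group. With probes well above background on all 12 arrays, 0 members were called. None of the 29 glutathione transferases and sulfotransferases passed in limma, and 4 of them had an unadjusted p under 0.05. All 4 UDP-glucuronosyltransferases had an unadjusted p under 0.05, with a median difference of -1.60, although only Ugt1a1 passed. Such a p was reached by 8 of all 33 members and by 3996 of all 18953 features, so the member count is near the share over all features. Sult1c2 at -1.28 ± 0.59 (adjusted p = 0.25) and Ugt2b35 at -2.15 ± 0.53 (adjusted p = 0.11) were among the larger differences that did not pass. The Ugt1a1 call was lost without DSS replicate 2 or 3 or control replicate 1, with adjusted p from 0.055 to 0.058. Without control replicate 3 and DSS replicate 1, the arrays with acinar transcripts, 4278 features were called in place of 62, and still 1 member.

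**Figure D4:**
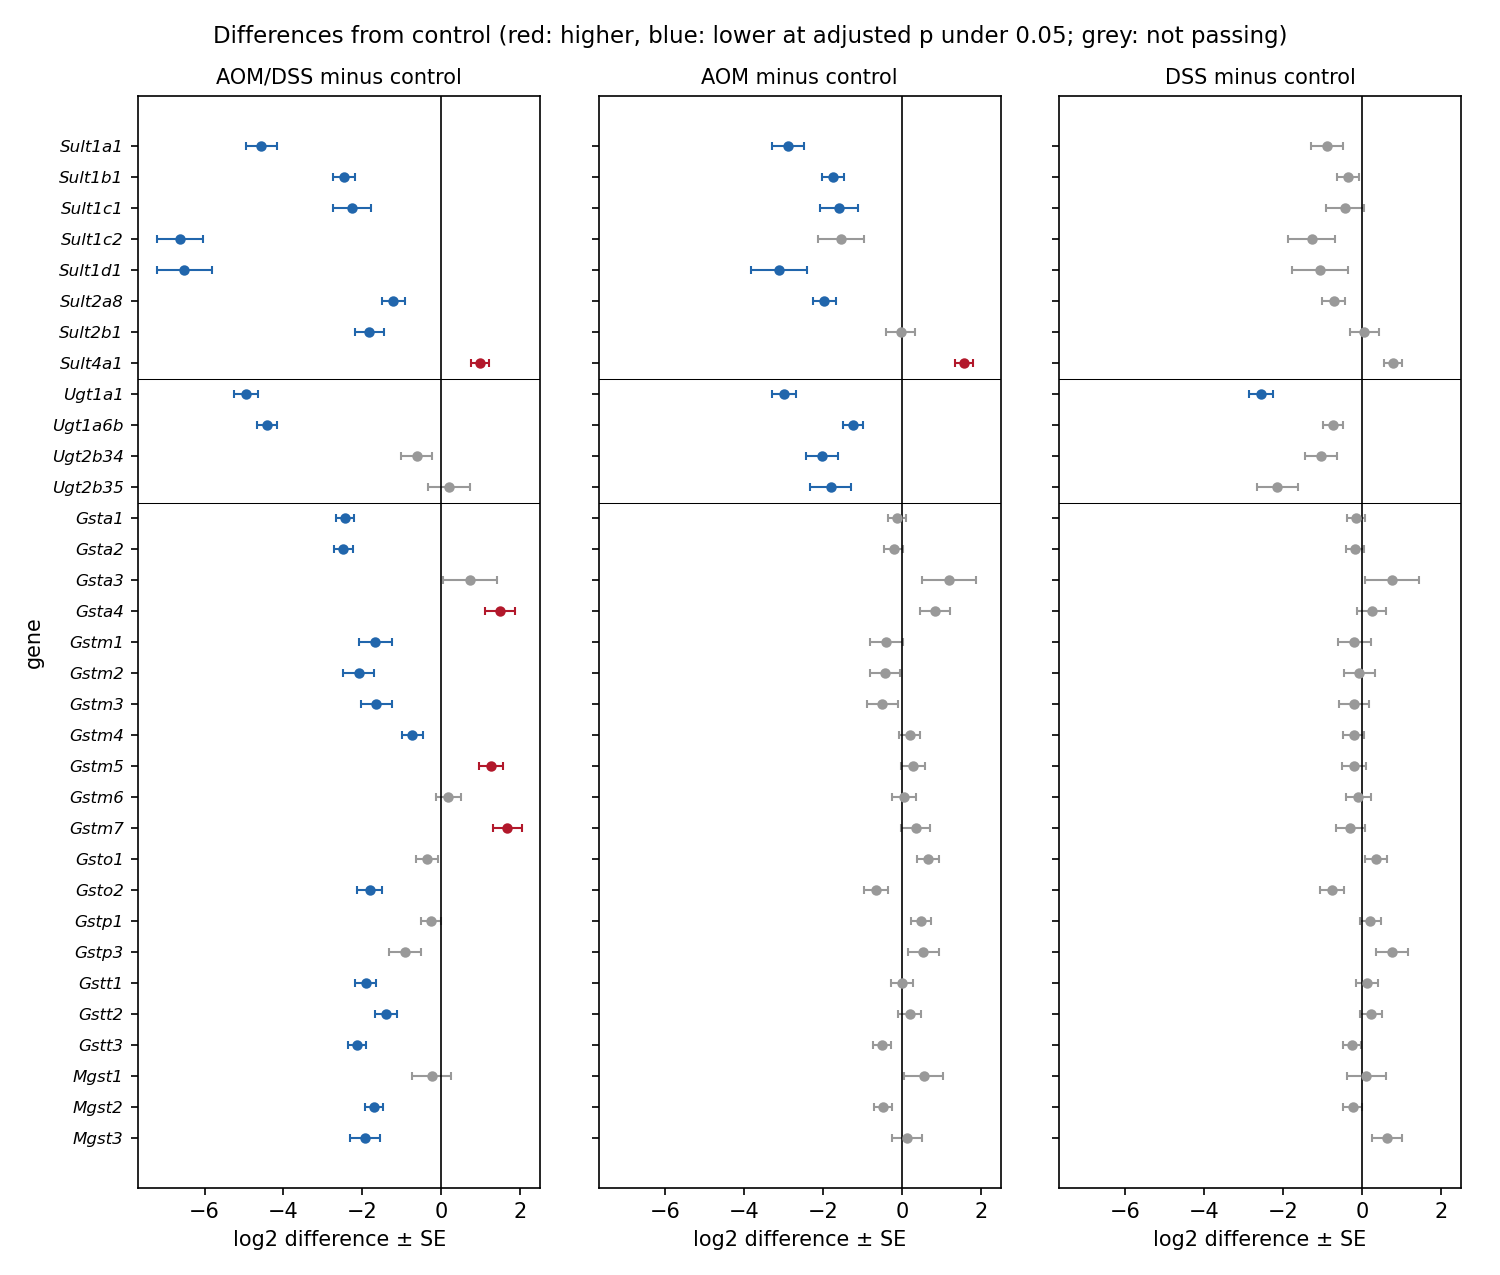
Points are log2 differences ± SE from control (horizontal axis) for the 33 genes, in panels for AOM/DSS, AOM and DSS; red and blue mark genes called higher and lower, grey those that did not pass. Blue points mark 7 of 8 sulfotransferases, 2 of 4 UDP-glucuronosyltransferases and 12 of 21 glutathione transferases for AOM/DSS, 5 of 8, 4 of 4 and 0 of 21 for AOM, and Ugt1a1 alone for DSS; the Ugt1a1 and Sult4a1 points include groups below background.

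Set against AOM epithelium, AOM/DSS neoplasms had 21 lower and 4 higher members, 25 of 33, where 37.1% of features were called (17.7% lower). Of the glutathione transferases 15 were lower and 2 higher, Gstm5 and Gstm7. Gsta1 was 4.95-fold lower (adjusted p = 0.00037), Mgst3 4.21-fold lower (adjusted p = 0.0054) and Gstt1 3.79-fold lower (adjusted p = 0.0019). Gstp3 was 2.76-fold lower (adjusted p = 0.019). Ugt1a1 counts among the lower genes here, but both groups were below background, so no fold is given. Scaling to each array's median in place of the 75th percentile gave 23 lower and 1 higher member, and moved the share of higher calls over all features to 33.7%, against 52.4%. None of the 4 higher calls held without AOM/DSS replicate 1 or 3 or AOM replicate 1, the Gstp1 call was lost without any 1 array, and the Gstm1 and Gstm3 calls held only without AOM replicate 3.

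Set against DSS epithelium, AOM/DSS neoplasms had 20 lower and 4 higher members, 24 of 33, where 35.9% of features were called (18.3% lower). The 20 include Ugt1a1, which was below background in both groups and has no fold here. Sult1d1 was 43.5-fold lower (adjusted p = 0.00067), Sult1a1 12.7-fold lower (adjusted p = 0.00027) and Ugt1a6b 12.7-fold lower (adjusted p = 3.5e-05). The 4 higher genes were Gsta4, Gstm5, Gstm7 and Ugt2b35, the last by 5.06-fold (adjusted p = 0.0088); the Gsta4 call was lost without AOM/DSS replicate 3 or DSS replicate 1 or 3. Without DSS replicate 1, 23 members were lower and 3 higher. These comparisons share the AOM/DSS arrays with those above. Median scaling moved the share of higher calls over all features to 35.2%, against 49.1%, and for AOM/DSS against control to 39.1%, against 49.7%.

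The arrays lay on 3 slides of 4, and the slides did not hold the groups evenly. AOM/DSS replicates 1 and 2 shared a slide with AOM replicates 1 and 2, AOM/DSS replicate 3 with the 3 controls, and AOM replicate 3 with the 3 DSS arrays. With slide as a block, 14 members were lower and 1 higher in AOM/DSS than in control, and all 25 called members kept their sign. The estimates of this fit equal those within the slide of AOM/DSS replicate 3 and the controls, so they rest on that 1 AOM/DSS array, assumed to vary like the others. Sult1a1 (-5.67, adjusted p = 0.00011), Sult1c2 (-7.83, adjusted p = 9e-04), Ugt1a6b (-4.36, adjusted p = 7e-04), Gsta1 (-2.20, adjusted p = 0.0048) and Gsta4 (2.20, adjusted p = 0.019) passed, whereas Gstm5 (1.49, adjusted p = 0.059), Gstm7 (1.85, adjusted p = 0.067), Gstm3 (adjusted p = 0.12), Gstm1 (-1.44, adjusted p = 0.16) and Gstm4 (-0.87, adjusted p = 0.18) did not. The other calls lost were Mgst3 (-1.99), Sult1c1 (-1.75), Sult2a8 (-0.76), Sult2b1 (-1.67) and Sult4a1 (0.73). That left 4 of 8 sulfotransferases called lower. Within the slide that holds AOM/DSS replicate 3 and the controls, 5 members passed, all lower. For AOM/DSS against AOM, 14 members passed with the block, and 12 within the slide that the groups share, all lower. For AOM against control, which share no slide, Sult1a1 alone passed with the block (-4.46, adjusted p = 0.015). Blocked estimates of AOM or DSS against control also run through AOM/DSS replicate 3, the only other array on the slide of the controls. That array read -0.89 for Sult1a1, against 0.54 and 1.02 on the other AOM/DSS arrays. For AOM/DSS against DSS 6 members passed, and in DSS against control the Ugt1a1 call was not kept.

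Some genes that supply the sulfate and glucuronate donors were also lower. Of 6 tested genes of PAPS supply, 4 were lower in AOM/DSS and 3 in AOM than in control, with none higher. Over all features 17.5% were lower in AOM/DSS and 17.6% in AOM. Slc26a2, the sulfate importer, was 9.56-fold lower in AOM/DSS (adjusted p = 6.5e-05) and 3.79-fold lower in AOM (adjusted p = 0.0052). Papss1, a PAPS synthase, was 2.44-fold lower in AOM/DSS (adjusted p = 0.0062), from 2 control arrays because 1 spot was flagged as an outlier. Of 5 tested genes in a list of UDP-glucuronate supply and related nucleotide sugar genes, 4 were lower in AOM/DSS and 3 in AOM. The 4 were Ugdh, Ugp2, Slc35d1 and Slc35a3, the last known mainly as a transporter of another nucleotide sugar. Ugdh, the dehydrogenase that makes UDP-glucuronate, was 4.79-fold lower in AOM/DSS (adjusted p = 3.4e-05) and 2.57-fold lower in AOM (adjusted p = 0.0034). The other genes of both lists did not pass. The list medians for AOM/DSS were -0.98 for PAPS supply and -1.32 for UDP-glucuronate supply, against 0.03 over all features.

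Of 13 genes of glutathione supply, 3 were lower and 2 higher in AOM/DSS, with a median of -0.04; 5 of 13 is near the 34.7% called over all features. Cth, which makes cysteine, was 8.56-fold lower (adjusted p = 4.8e-06), while the cystine importer Slc7a11 was at least 3.32-fold higher (adjusted p = 0.0026) and the intestinal glutathione peroxidase Gpx2 4.58-fold higher (adjusted p = 0.0059). In AOM, Gpx2 was 4.82-fold higher (adjusted p = 0.011) and Cth 2.62-fold lower (adjusted p = 0.003), with 3 of the 13 genes higher and 1 lower, where 32.4% of all features were called.

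**Figure D5:**
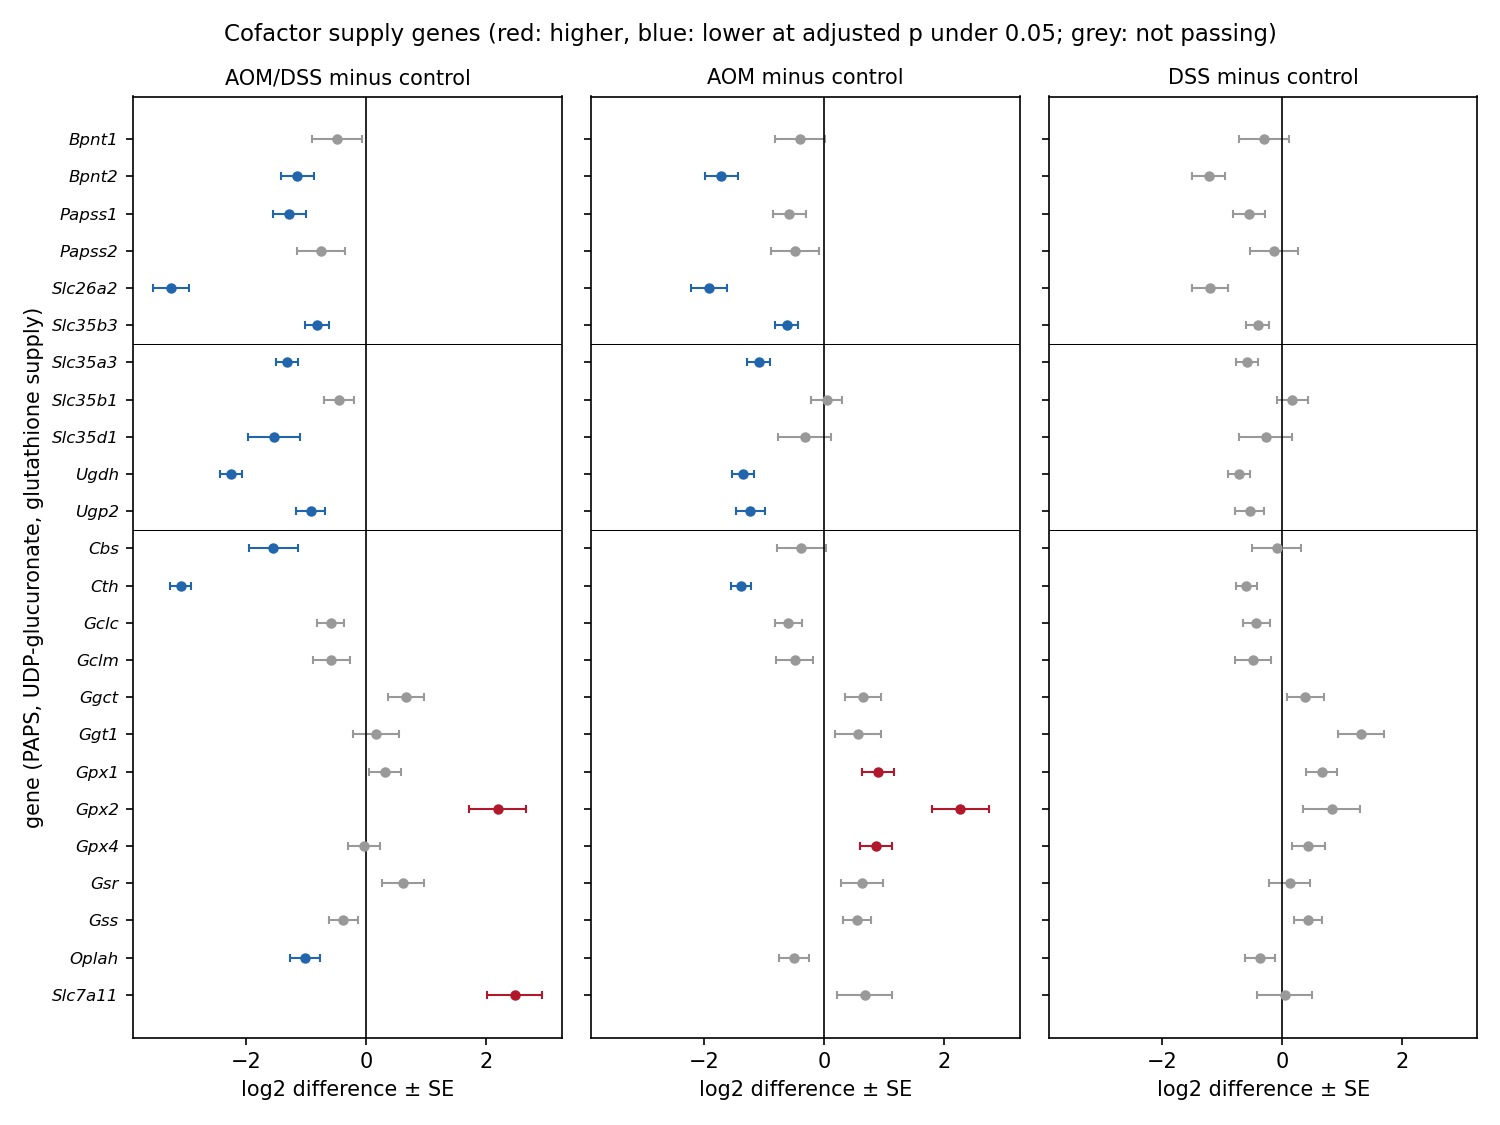
Points are log2 differences ± SE from control (horizontal axis) for the tested genes of PAPS, UDP-glucuronate and glutathione supply, in panels for AOM/DSS, AOM and DSS; red and blue mark genes called higher and lower, grey those that did not pass. Coloured points of the upper and middle blocks all lie left of 0, those of the glutathione block on both sides, and no gene passed in DSS.

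Of 9 tested genes in a list of deconjugating enzymes and carboxylesterases, 5 were lower and 2 higher in AOM/DSS, where 34.7% of all features were called. The genes named here are all carboxylesterases, so they do not describe the removal of sulfate, glucuronate or glutathione. The carboxylesterases Ces2c, Ces2a and Ces2e were 41.4-fold, 17.3-fold and 11.7-fold lower (adjusted p = 9.6e-06, 3.2e-05 and 7e-05). Ces1g was higher (adjusted p = 0.0014); it was well above background on 3 of 3 AOM/DSS arrays and 1 of 3 control arrays, so no fold is given. Of 17 other conjugating and detoxifying enzymes, 5 were lower and 3 higher, 8 in all, against the same 34.7% over all features. Ephx2, a soluble epoxide hydrolase, was 7.13-fold lower (adjusted p = 0.00075). Ltc4s, which conjugates glutathione to a leukotriene precursor, was 3.22-fold lower (adjusted p = 0.0032), and Ptges, a prostaglandin E synthase of the same membrane family, 2.98-fold higher (adjusted p = 0.019).

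Among 21 tested Nrf2 regulators and targets, 6 were higher and 3 lower in AOM/DSS, with a median of 0.14, and 6 were higher and 1 lower in AOM, with a median of 0.63. These 9 and 7 calls are near the shares over all features, 34.7% in AOM/DSS and 32.4% in AOM. Hmox1, the haem oxygenase, was 7.34-fold higher (adjusted p = 0.0093) and the small Maf gene Mafg was higher by 2.00 ± 0.22 on the log2 scale (adjusted p = 0.00016) in AOM/DSS. Among 21 xenobiotic-sensing and gut transcription factors, 14 were lower and 2 higher in AOM/DSS, and 7 lower and 1 higher in AOM. The 8 calls in AOM are near the 32.4% called over all features. Cdx2, an intestinal identity factor, was 8.51-fold lower (adjusted p = 9e-05) and Ppara, the fatty acid-sensing receptor, 6.70-fold lower (adjusted p = 0.00052) in AOM/DSS. Nr5a2 was lower in AOM/DSS (adjusted p = 1.6e-05), but only 1 of 3 AOM/DSS arrays was well above background, so no fold is given, and Onecut2 was at least 11.99-fold higher (adjusted p = 0.002). In DSS no gene of these 7 lists passed in limma, with 2 to 7 per list at an unadjusted p under 0.05. Over all 18953 features, 3996 had such a p in DSS.

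The 20 members that had a probe but did not pass the filter were Gstt4, Sult1e1, Sult2a3 to Sult2a7, Sult3a2, Sult5a1, Sult6b1, Ugt1a9, Ugt2a1, Ugt2a3, Ugt2b1, Ugt2b36, Ugt2b37, Ugt2b38, Ugt2b5, Ugt3a1 and Ugt3a2. Of these, 11 were well above background on no array and 9 on 1 to 4 of the 12. The other 14 RefSeq members, Gstk1 among them, had no probe matched here and were not analysed.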

How the data were processed

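RNA of 12 samples was hybridised to one-colour Agilent arrays. The deposited scanner files hold intensity values that version 10.7.3.1 of Feature Extraction (Agilent) wrote, per the file headers: the processed signal, from which background and spatial trend had been removed, and the raw median spot and local background signals. A value table on the log2 scale was also deposited; its sorted columns differ by at most 0.000945, as after quantile normalization. Its software was not found in the labels or headers, and it served as an alternative.

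Spots flagged as outliers were left out (141 missing probe values, none in a member), spots of 1 probe were averaged, and log2 processed intensity was scaled to each array's 75th percentile over 41174 non-control probes, 27198 of which had a symbol through RefSeq. A probe was kept if at least 50% of its used spots were well above background on all 3 arrays of a group; the brightest kept probe stood for a gene. Group means were fitted with limma 3.58.1 in R 4.3.3 (8 residual and 2.64 prior degrees of freedom), with no block. Fits with a block, within a slide or without an array kept these 18953 features. The scripts were tested on simulated data. The number of arrays, 3 in a group, limits the precision, and no label tells if each array is a mouse of its own, so p-values measure only the spread among these arrays, which may be technical.

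Bounds ("at least") use, per array, the lowest signal among probes well above background or the dim probe's own, whichever is higher. Named members were, per family, up to 4 called in any comparison with the largest AOM/DSS difference from control (or, where none was called, up to 2 with the highest signal), and, per comparison, the 5 called with the largest rise and fall; from each other list up to 4 called genes were named. The members, lists and rules were chosen with earlier results of these data known.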

Additional observations from a re-analysis of the deposited data

How the results depend on the processing

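AOM/DSS against control gave 24 to 25 called members when any 1 array was left out, AOM against control 7 to 10, AOM/DSS against AOM 16 to 25, AOM/DSS against DSS 19 to 26, DSS against control 0 to 2, and the F test over all groups, with 29 members, 24 to 30. The lowest counts for AOM/DSS against AOM came without AOM/DSS replicate 1 or 3; for DSS against control 0 members were called without DSS replicate 2 or 3 or control replicate 1, and 2 without DSS replicate 1, the second being Sult4a1. Over all features the same ranges were 4303 to 6957 against 6579, 1965 to 6469 against 6137, 3369 to 5519 against 7041, 3318 to 8872 against 6806, 1 to 3187 against 62, and 5932 to 11625 against 9974; the lowest came without control replicate 1, AOM replicate 2, AOM/DSS replicate 1, DSS replicate 3, DSS replicate 2 and AOM/DSS replicate 1 in that order, and the highest in DSS without DSS replicate 1.

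Slide as a block gave 15, 1, 14, 6 and 0 members in the 5 comparisons (AOM/DSS, AOM, AOM/DSS against AOM, AOM/DSS against DSS, and DSS) and 17 by F, and 2208, 4, 2831, 438, 2 and 2498 features; within a slide, AOM/DSS against control gave 5 members and 572 features, and against AOM 12 members and 3934 features. The normexp correction gave 17 members for AOM/DSS against control, 15 lower and 2 higher. It gave 4 members for AOM, 11 for AOM/DSS against AOM, 16 for AOM/DSS against DSS, 0 for DSS and 16 by F. The features called were 2740, 1861, 1249, 1889, 1 and 2447. The normexp correction alone reversed a call, Sult4a1, at -0.423 in AOM and -1.054 in AOM/DSS. Under it 39.6% of calls were higher for AOM/DSS, 57.1% for AOM, 40.7% for AOM/DSS against AOM and 36.2% for AOM/DSS against DSS, against 49.7%, 45.7%, 52.4% and 49.1%. With no filter, 38 members were called in AOM/DSS against control, because 20 more entered the test, and 13819, 13247, 39 and 16456 features in AOM/DSS against control, against DSS, in DSS and by F. With probes well above background on all 12 arrays, 0 members were called in DSS against control, since Ugt1a1 was not tested. Quantile normalization gave 114 features, and the authors' values 112, in DSS against control. Median scaling moved the median difference of all features to -0.12 in AOM/DSS, 0.16 in AOM and -0.36 between AOM/DSS and AOM and -0.18 between AOM/DSS and DSS, against 0.03, -0.01, -0.04 and 0.04. Same-numbered samples share only a number: over 18 pairs, the correlation of their deviations from group means ran from -0.27 to 0.24, and 8 pairs were over 0.1. A replicate block called 24, 11, 23, 24 and 1 members, and 40 features in DSS. Alternatives chosen after seeing the data were leaving out control replicate 3 and DSS replicate 1 together (7992 features in AOM/DSS, 7871 in AOM, 9394 in AOM/DSS against DSS, 4278 in DSS and 12323 by F; 25 members in AOM/DSS against control) and requiring every spot of a probe above background (18947 features, the same member counts). Except where stated, the cause of these shifts was not tested.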
